A study of Mus musculus with 8 samples.

Results

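The cultures described here are 4 parental cultures of mouse embryonic stem cells that had been differentiated for 6 days towards precardiac mesoderm. They are 4 of the 8 libraries of the series, chosen by their label as wild type, and the 4 libraries of the line mutant for Tbx1 were not used. The parental line is E14-Tg2a, a male mouse embryonic stem cell line, with wild-type genotype per the labels. The cells were dissociated with trypsin, seeded in serum-free differentiation medium and harvested on day 6, with no other treatment named. The design text calls the 4 cultures biological replicates of 1 line, so the spread between them is a spread between cultures and not between lines or animals. PolyA RNA was measured by QuantSeq, which reads 1 fragment at the 3′ end of a transcript, so levels were not divided by length. Levels are given as CPM, the counts per 1000000 of each library's total without 1 ribosomal RNA gene, CT010467.1, and the libraries are called 1 to 4 by the replicate number in their titles. With 1 group there is no contrast and no test, and all values below are descriptions.

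Precardiac mesoderm is the sheet of lateral plate mesoderm from which the heart forms. Its first heart field gives rise to the early beating tube and is known for Tbx5, Nkx2-5 and Hcn4. The second heart field stays undifferentiated for longer, adds cells at both poles of the tube and is known for Isl1, Tbx1 and Fgf10. Differentiating cardiomyocytes switch on the sarcomere genes, whose actin, myosin, troponin and titin products form the contractile filaments. The Hox genes are homeodomain factors arranged in 4 clusters, and their paralogue number follows their order of use along the body from head to tail.

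Depth ranged from 4967442 counts in library 4 to 6293907 in library 3. The ribosomal RNA gene took between 10.2% of counts in library 2 and 13% in library 4. More than 3 counts, the floor used for calling a gene present, were found for 12972 genes in all 4 libraries and for another 6884 in 1 to 3 libraries. A mean of at least 10 CPM was reached by 9241 genes, of at least 100 CPM by 2051 and of at least 1000 CPM by 95. In none of the 6 pairs did the libraries look like copies of 1 library: the chi-square of their counts per degree of freedom was between 6.99 and 11.8, where counting noise alone gives about 1. No molecular identifier is mentioned, so PCR copies and differences between cultures both enter this value. Between 2.80% (libraries 1 and 2) and 6.14% (libraries 1 and 4) of the 9241 genes differed at least 2-fold within a pair. Xist, the noncoding RNA that silences an X chromosome in female cells, was at 4.93 CPM ± 1.80 (SD, n = 4). The Y-linked genes Ddx3y, Uty and Eif2s3y were at 62.8, 45.5 and 39.8 CPM, and Kdm5d was at or under 5 counts in every library.

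The most abundant RNAs counted were those of mitochondria, the cytoskeleton and translation. The 10 most abundant genes held 10.2% of counts and the top 1000 held 56.0%. The mitochondrial ribosomal RNA mt-Rnr2 led with 34065, 35471, 35785 and 47242 CPM in libraries 1 to 4, and mt-Rnr1 followed with a mean of 13485 CPM. The mitochondrial mRNAs mt-Co2, mt-Co3, mt-Atp6, mt-Atp8 and mt-Nd4l, which every cell uses, were listed at 0 counts in all libraries. A gene listed at or near 0 in this table, here and below, may therefore have been missed by the counting, and the ranking holds only for what was counted. Library 4 was highest for both: mitochondrial ribosomal RNA made up 6.46% of its counts, against 4.61% to 4.79% in the others. Actb, the cytoplasmic beta-actin, was at 10201 CPM ± 842 (SD, n = 4) and the chaperone gene Hsp90ab1 at 6957 ± 225. Ribosomal protein genes together took 8.72% of counts, with the lowest share, 7.89%, in library 4. Among the top 25 were also Meg3, a maternally expressed imprinted noncoding RNA, at 4141 CPM ± 805, Peg3, a paternally expressed imprinted gene, at 2707 ± 330, and Tubb5, a tubulin, at 2966 ± 147. H19, another imprinted noncoding RNA, was at 210 CPM ± 16.8. Its neighbour Igf2 was listed at 3.54 ± 1.14, a low value to which the limit on low counts applies. Genes with near-identical copies elsewhere, such as ribosomal protein genes, Gapdh and Pgk1, are uncertain, because reads that fit several copies may be lost in counting: Pgk1, a glycolytic enzyme, was at 18.8 CPM and Ldha, lactate dehydrogenase, at 732.

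Of 581 genes matched to 32 families of transcription and chromatin factors, 391 were present in all 4 libraries, 109 in 1 to 3 and 81 in none. A mean of at least 100 CPM was reached by 77 of them. The highest was Hmga2, a chromatin protein of fetal and stem cells, at 1845 CPM ± 62.5 (SD, n = 4). Next came Sox11 at 1368 ± 183, Hmgn1 at 989 ± 75.8 and Hand1, a basic helix-loop-helix factor of lateral mesoderm and early heart, at 683 ± 33.9. Hand1, Id2 at 666 ± 34.6 and Sox4 at 651 ± 56.1 did not differ beyond their spread. Hand2, the partner of Hand1 in the second heart field and limb, was at 389 ± 20.5. Both Hand genes were even across cultures, with a coefficient of variation (CV, the SD as a percentage of the mean) of 4.96% for Hand1 and 5.27% for Hand2. Other factors in the top 30 were the homeodomain cofactor Meis2 (270 CPM), the E protein Tcf4 (492), Tead1 (315), which binds the Hippo pathway coactivator YAP, Msx1 (277), Hoxd4 (268) and Nr2f2 (246).

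**Figure D1:**
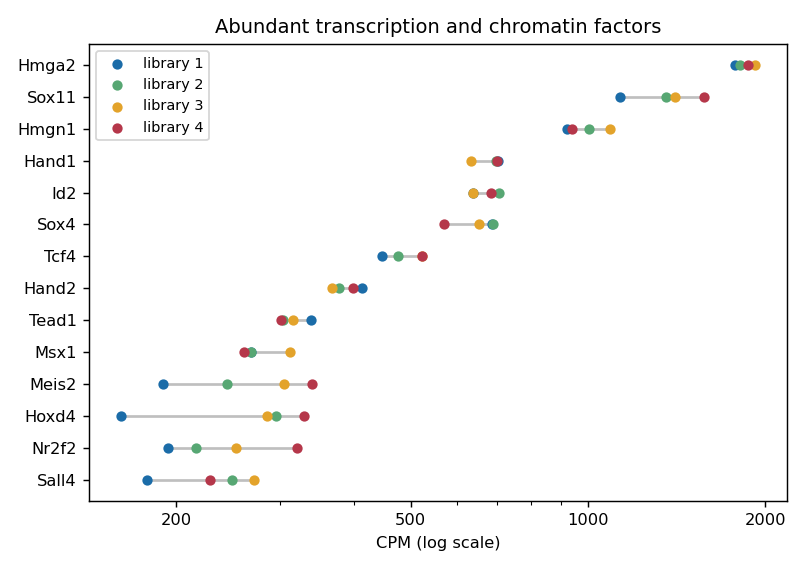
CPM (log scale) of the factors named in the text from among the 30 most abundant, 1 point per library and a grey bar from the lowest to the highest. Most factors are tight, such as Hand1 between 632 and 702 CPM, while Hoxd4, Meis2 and Nr2f2 spread widely with library 1 lowest.

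Among cardiac factors, Isl1, the LIM homeodomain factor of second heart field progenitors, was at 84.8, 85.7, 77.7 and 81.0 CPM in libraries 1 to 4, a CV of 4.50%. Gata6 was the highest GATA zinc finger factor, with 152, 174, 123 and 126 CPM. Gata4, which acts with Nkx2-5 and Tbx5 on cardiac promoters, was at 47.8, 36.4, 24.9 and 22.2 CPM. Libraries 1 and 2 were thus above libraries 3 and 4 for both GATA factors. By the measure of variation between libraries defined below, however, none of the 4 tested GATA factors was called variable. Of the T-box family 10 of 17 members were present in all libraries. Mga, a large repressor with a T-box, was highest at between 208 and 224 CPM, and Tbx20, a cardiac repressor, had 81.0, 62.7, 53.3 and 37.9 CPM. Tbx1, at chr16:18580979-18590671 on the minus strand of GRCm38, was low, with 39, 65, 38 and 22 counts or 7.90, 13, 6.75 and 5.09 CPM. Brachyury (T), the factor of the primitive streak, was between 11.8 and 30.7 CPM, and Eomes, which precedes it, between 0.533 and 4.45. For scarce factors the counts limit what can be seen: of 83 factors with a mean of 5 to 20 counts, 18 had 0 counts in at least 1 library.

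The labelled identity was compared with marker lists. In bulk RNA, fewer cells of a type and less RNA per cell cannot be told apart. All 21 listed lateral plate and splanchnic mesoderm genes were present in all libraries, and their summed level was nearly even, from 2790 CPM in library 4 to 3063 in library 1. The even sum held members that differed in direction. By the measure of variation between libraries defined below, 6 of its 20 tested genes were called variable (30%, against 4.63% of all tested genes): Kdr, Bmp2, Tbx20 and Wnt2 were highest in library 1, Bmp4 in library 2 and Prrx1 in library 4. Besides Hand1, Hand2 and Msx1, which were not called, the list held Bmp4 (380 CPM ± 67.3) and Kdr, a VEGF receptor of early mesoderm and endothelium (280 ± 67.5). Pdgfra, also not called, lay between 98.0 and 135 CPM. The second heart field list had 22 of 25 genes present in all libraries and summed to between 799 and 913 CPM. All 7 first heart field genes were present in all libraries, summing to between 729 and 900 CPM, of which Hand1, shared with 2 other lists, made up most. The cardiomyocyte list summed to 6943, 4205, 2360 and 1863 CPM, so that library 1 was 3.73-fold above library 4. Without library 1 the highest of the others was 2.26-fold above the lowest.

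**Figure D2:**
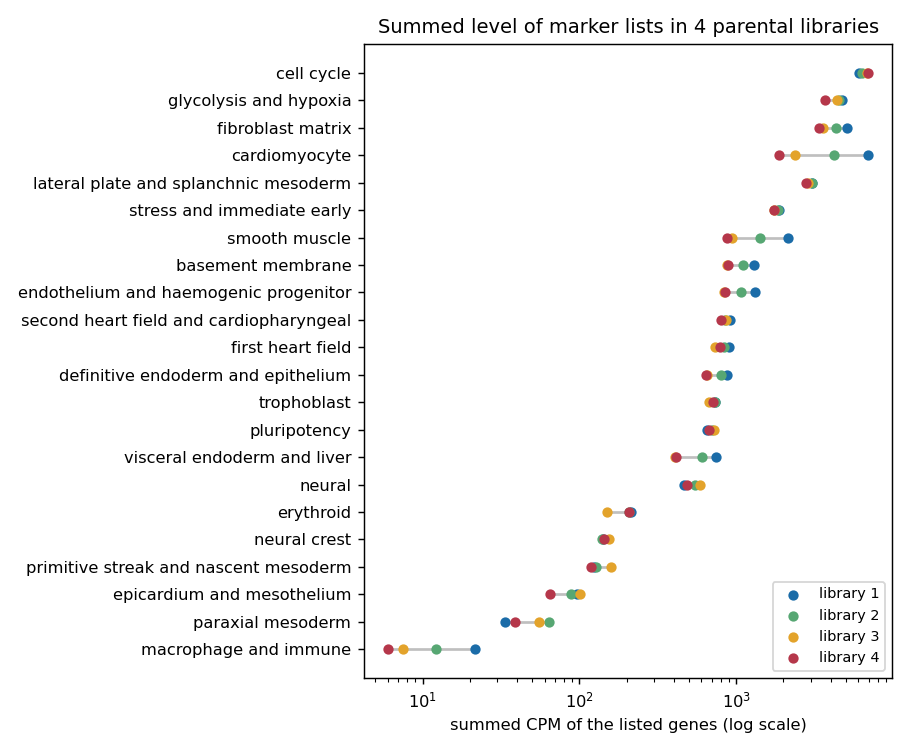
Summed CPM (log scale) of the genes of each marker list, 1 point per library and a grey bar from the lowest to the highest. The cardiomyocyte list runs from 1863 CPM in library 4 to 6943 in library 1, while the lateral plate list stays between 2790 and 3063.

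Genes of earlier stages were found at unequal levels. Of the primitive streak list 8 of 16 genes were present in all libraries and 6 in 1 to 3, with a sum between 118 and 159 CPM. Of the pluripotency list 12 of 16 were present in all libraries and 4 in 1 to 3, with a sum between 653 and 719 CPM. Pou5f1, the core pluripotency factor, had 2, 7, 0 and 0 counts, and Nanog was between 0.889 and 6.71 CPM. Members of the pluripotency list with more RNA were Lin28a, an RNA-binding protein of early embryos (267 CPM ± 5.44), Sall4 (between 179 and 271) and Dnmt3b, a DNA methyltransferase (between 108 and 112). Msgn1, of presomitic mesoderm, was listed at 0 counts in all libraries, which allows up to between 0.533 and 0.694 CPM per library for counting error only. The paraxial mesoderm list was low but not absent: 6 of its 14 genes were present in all libraries and 6 more in 1 to 3, with a sum between 33.4 and 63.7 CPM. Among them Pax3, a paired-box factor of somites and neural tube, had 6.48, 18.2, 16.2 and 16.4 CPM and Meox1, a somite homeodomain factor, 9.11, 17.2, 14.6 and 5.32. Of the neural crest list 7 of 12 genes were present in all libraries, with a sum between 139 and 155 CPM, most of it from Ets1 (between 46.2 and 69.0) and Sox9 (between 45.9 and 69.1), which other cell types also express, while Sox10 was listed at 0 throughout. Neurog1, Neurog2 and Olig2, of neural progenitors, were also listed at 0, and so were the leukocyte genes Ptprc, Csf1r and Adgre1. The neural list nevertheless summed to between 463 and 591 CPM, of which Ncam1 and Crabp1, which mesoderm also expresses, had means of 271 and 158 CPM.

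Other lineages were present. Of 25 endothelial and haemogenic genes 24 were present in all libraries, led by Egfl7, an endothelial secreted factor, with 162, 147, 129 and 135 CPM, and Pecam1, an endothelial adhesion molecule, with 144, 114, 74.5 and 89.5. Embryonic beta-globin Hbb-bh1 had 137, 126, 81.1 and 129 CPM, lowest in library 3. Of the endoderm and epithelium list 19 of 20 genes were present in all libraries, with Spink1, a protease inhibitor, at 250, 188, 152 and 114 CPM and Sox17 between 17.8 and 36.2. Apoe and the thyroid hormone carrier Ttr led the visceral endoderm list with means of 411 and 68.3 CPM, while Alb, the albumin gene, was listed at 0 counts in every library.

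Variation was measured by the CV over the 4 libraries of each of the 9241 genes with a mean of at least 10 CPM, divided by the median CV of itself and the 500 other genes nearest in level. A gene was called variable where this ratio was at least 2. The median CV was 15.9% over all 9241 genes, 27.0% for genes at 10 to 20 CPM and 9.23% at 100 CPM or more. Called variable were 428 genes, or 4.63% of those tested. Of the 428, 260 spanned at least 2-fold from the lowest to the highest library and 65 at least 4-fold. Among all 9241 tested genes 1306 spanned at least 2-fold and 89 at least 4-fold. The rule itself picks genes with a wide range for their level. With 1 library left out, between 676 and 781 genes passed the same rule. Over the 4 libraries, library 1 was the highest for 229 of the 428 (53.5%, against 27.6% of all tested genes) and library 4 the lowest for 205 (47.9%, against 29.8%). Both held for 140 genes (32.7%, against 11.6% of all tested genes). The reverse, highest in library 4 and lowest in library 1, held for 53 (12.4%, against 10.5%), near the share of all tested genes. Just inside the threshold were Prnp and Gas2l1, both at a ratio of 2.00, and just outside were Tmem108 and Sestd1, at 2.00 when rounded.

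**Figure D3:**
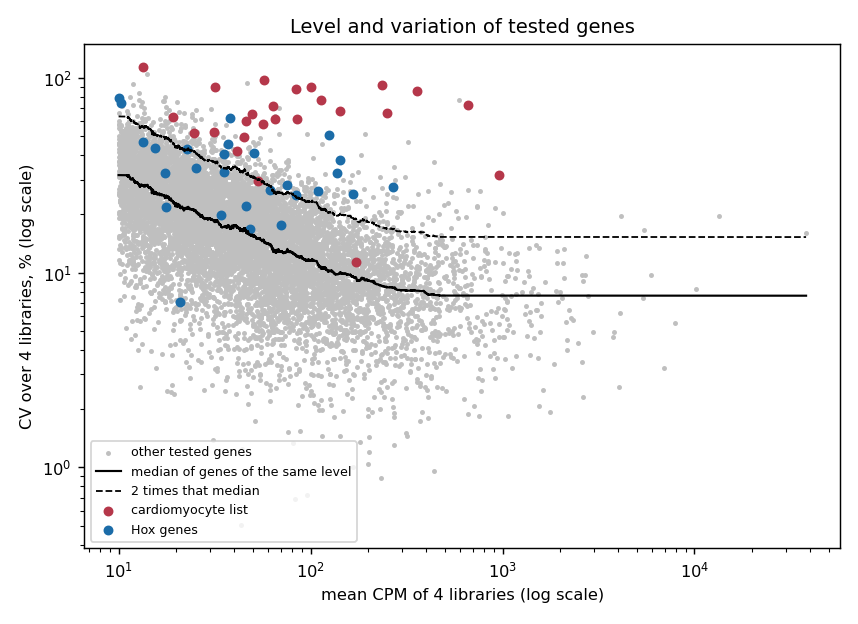
Mean CPM (x axis, log scale) and CV over 4 libraries in percent (y axis, log scale) of 9241 genes, with the median CV of genes of the same level (solid line) and 2 times that median (dashed line). Of 25 cardiomyocyte genes (red) 23 lie on or above the dashed line, and of 27 Hox genes (blue) 15 do.

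The genes that varied most were those of the sarcomere, all highest in library 1. Of the 10 genes with the largest ratios 9 came from the cardiomyocyte list, and of the first 25, 14 did. Actc1, the cardiac alpha-actin at chr2:114047282-114053548 on the minus strand, had 528, 265, 82.1 and 63.6 CPM in libraries 1 to 4, an 8.30-fold range and a CV 10.7 times that of genes of its level. Myl7, the atrial myosin light chain, had 782, 393, 168 and 97.2 CPM. Titin (Ttn), the giant spring of the sarcomere, had 1312, 730, 335 and 271 CPM. Each of them was highest in library 1, next in library 2, and lower in libraries 3 and 4. Without library 1 the range was 4.16-fold for Actc1, 4.05-fold for Myl7 and 2.69-fold for Ttn. The thin filament genes Tnnt2 (troponin T) and Tnni1 (slow troponin I) had 458, 308, 144 and 93.2 CPM and 279, 141, 89.8 and 60.6 CPM, again with library 1 highest and library 4 lowest. The myosin heavy chains Myh7 and Myh6 had 188, 84.7, 37.3 and 25.9 CPM and 137, 54.1, 22.8 and 15.0 CPM.

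Over the cardiomyocyte list, 35 of 53 genes were present in all libraries, 13 in 1 to 3 and 5 in none. Of the 25 with a mean of at least 10 CPM, 23 were called variable against 4.63% of all tested genes, all 23 were highest in library 1, and 19 were lowest in library 4. Since a mean can pass on a single high library, the 21 genes with at least 10 CPM in every library were also counted. Of them 19 were called, against 4.4% of all genes with that level in every library. Without library 1, 20 of 24 tested genes of the list were called, against 7.34% of all genes tested in that way. The 2 tested genes not called were the calcium pump gene Atp2a2, with 183, 172, 188 and 144 CPM, and Unc45b, a myosin chaperone, with 72.9, 58.3, 43.0 and 38.2. Calcium handling genes were divided: the sodium-calcium exchanger Slc8a1 had 124, 73.7, 31.8 and 25 CPM and the release channel Ryr2 95.2, 47.3, 23.1 and 31.7. Over the 23 variable genes the range from lowest to highest library had a median of 4.91-fold, against 2.21-fold over all 428 variable genes. That median was 3.04-fold without library 1 and 3.19-fold without library 4. The smallest range was 1.90-fold, for Tpm1, a tropomyosin also used outside muscle. Genes of later heart muscle were listed at or near 0, with the limit on low counts given above. Nppb and Mb had 0 counts in all libraries, Nppa had 4, 1, 0 and 0 counts, Pln, the regulator of Atp2a2, had 0, 2, 2 and 0, and Ckm, a creatine kinase, had 4, 0, 0 and 0. Myl2, the ventricular light chain, had 77, 29, 7 and 0 counts, highest in library 1 like the variable genes.

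**Figure D4:**
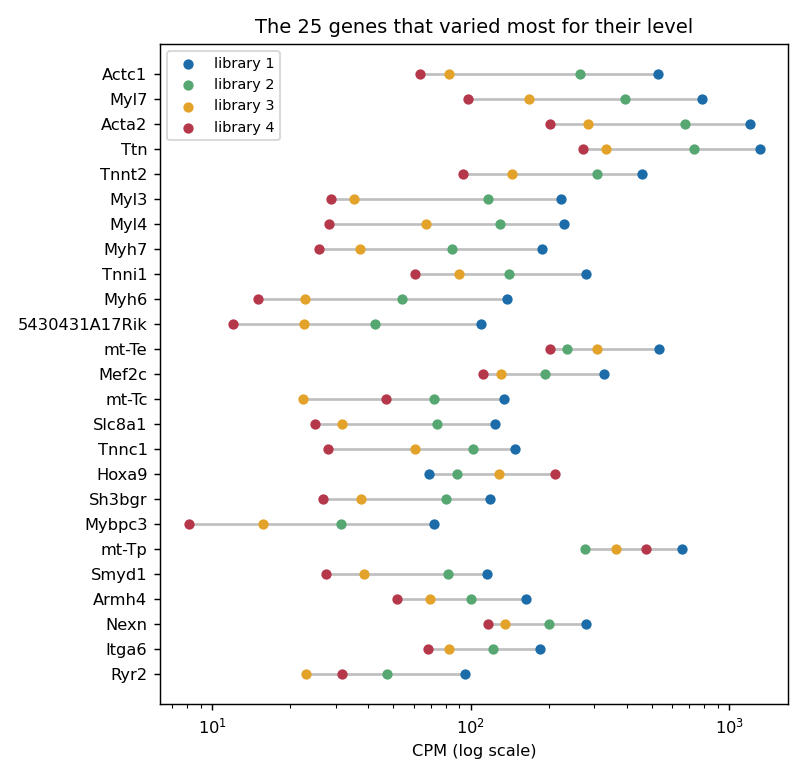
CPM (log scale) of the 25 genes with the largest CV relative to genes of their level, 1 point per library. Library 1 is the highest for 24 of the 25; Hoxa9, from 68.6 to 211 CPM, is highest in library 4.

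For the muscle genes among the variable ones, the 250 bases before each start site in RefSeq (build GRCm38.p6) were searched on both strands for the CArG box. This box of 10 bases (CC, then a run of A or T, then GG) is the element bound by serum response factor on many muscle promoters. A window existed for 26 of the 28 variable genes of the cardiomyocyte and smooth muscle lists, and 6 of these (23.1%) held a box, against 378 of 27025 genes (1.40%) overall. The box is known from muscle promoters, so a share above that of all genes describes a set of muscle genes and does not bear on why they differed between cultures. The 6 are shown 5′ to 3′ along the gene's strand with the box in capitals, because they are the promoters of the most variable group that carry it. The starts are those of RefSeq. In the GENCODE M21 annotation none of the stretches overlaps an exon, but those of Actc1, Myl3 and Myom1 lie inside the gene, each in an intron of 1 transcript that starts further upstream.
Actc1, chr2:114052893-114052952, minus strand: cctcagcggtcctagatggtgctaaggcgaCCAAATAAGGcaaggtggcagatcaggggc
Myl7, chr11:5898814-5898873, minus strand: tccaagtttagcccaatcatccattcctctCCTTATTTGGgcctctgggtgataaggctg
Myl3, chr9:110763563-110763622, plus strand: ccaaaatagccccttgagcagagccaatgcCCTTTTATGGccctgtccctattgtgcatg
Myom1, chr17:71019428-71019487, plus strand: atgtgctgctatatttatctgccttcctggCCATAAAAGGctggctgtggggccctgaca
Ldb3, chr14:34588687-34588746, minus strand: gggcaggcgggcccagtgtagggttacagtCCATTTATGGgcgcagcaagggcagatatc
Myl9, chr2:156775273-156775332, plus strand: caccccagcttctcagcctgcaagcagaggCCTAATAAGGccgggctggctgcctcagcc

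The first base of the box lay 47 bases before the start in Actc1, 61 in Myl7, 85 in Myl3, 99 in Myom1, 35 in Ldb3 and 161 in Myl9. A GATA site spelled AGATAA was found in 6 of the 26 windows (23.1%, against 10.2% of all genes), a TATA box spelled TATAAA in 1 (3.85%, against 13%) and a MEF2 site spelled TAAAAATA in 2 (7.69%, against 2.48%). A match is a string of letters and does not show that a protein was bound. Of the factors known to act at such elements, Myocd, the muscle coactivator of serum response factor, had 81.8, 52.3, 32.2 and 18 CPM. Mef2c had 328, 194, 131 and 112 CPM. Both were highest in library 1 and lowest in library 4. Srf itself was scarce, with 2.43, 5.41, 4.44 and 1.62 CPM. Mef2a was even, with 98.4, 89.5, 102 and 85.4.

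Smooth muscle genes, several of which early cardiomyocytes also use, were uneven in the same way. Acta2, the smooth muscle alpha-actin, had 1203, 672, 285 and 203 CPM, and Cnn1, calponin, had 31.4, 20.6, 1.42 and 2.54. Of 7 tested genes of the list 5 were called, against 4.63% of all tested genes, all highest in library 1. Cnn1 had passed through the libraries in which it was high. Of the 5 genes with at least 10 CPM in every library 4 were called, against 4.4% of all such genes. Cald1, caldesmon, stayed between 529 and 625 CPM. Of defining smooth muscle genes Myh11 was at a mean of 1.3 CPM and Tagln between 1.60 and 6.21. Fibroblast matrix genes were called in 8 of 16 cases, again all highest in library 1. Of the 15 with at least 10 CPM in every library 7 were called, against 4.4% of all such genes. Col1a2, a fibrillar collagen chain, had 875, 745, 525 and 512 CPM, Sparc, a collagen-binding glycoprotein, 1030, 801, 600 and 618, and Postn, periostin, 35.2, 29.0, 12.8 and 5.55. The endothelial list had 5 of 20 tested genes called, all highest in library 1, with Pecam1, Cdh5, Esam, Ramp2 and Mmrn2 each between 1.86-fold and 3.22-fold from lowest to highest. Summed over all 25 listed genes, the endothelial list had 1309, 1066, 838 and 842 CPM. The visceral endoderm list had 737, 601, 409 and 416 over its 13, most of it from Apoe alone, with 543, 454, 314 and 332. The endothelial and visceral endoderm sums and the called matrix genes were thus highest in the same library as the sarcomere genes. Their part in that result was not tested.

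Heart field factors were unequal in their spread. First heart field genes were called in 4 of 6 tested cases, against 4.63% of all tested genes, all highest in library 1. Of the 3 with at least 10 CPM in every library 1, Hcn4, was called, against 4.4% of all such genes. The other 3 called genes had passed through the libraries in which they were high. Nkx2-5, an early cardiac homeodomain factor, had 27.3, 11.4, 6.58 and 2.08 CPM (135, 57, 37 and 9 counts), and Tbx5 had 19.2, 13.8, 2.49 and 6.25. The pacemaker channel gene Hcn4 had 87.9, 79.1, 53.1 and 52.1 CPM, and Smarcd3, a chromatin remodelling subunit, 27.1, 11.6, 11.6 and 6.71. Of the second heart field list 4 of 15 tested genes were called, and their directions were mixed. Mef2c was highest in library 1, whereas Aldh1a2, the enzyme that makes retinoic acid, had 15.0, 24.8, 40.3 and 36.1 CPM, Hoxb1 25.7, 34.2, 56.5 and 25.9, and Nr2f2, a nuclear receptor of atrial progenitors, 194, 216, 252 and 321. These last genes were lowest in library 1, Hoxb1 in a near tie with library 4.

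Hox genes were mostly lowest in library 1, the library in which the sarcomere genes were highest. Of 39 Hox genes 33 were present in all libraries, from both ends of the clusters. The highest was Hoxd4, with 161, 296, 285 and 329 CPM, followed by Hoxc6 with 110, 159, 197 and 202 and Hoxb9 with 74.3, 127, 171 and 199. Called variable were 15 of the 27 tested, against 4.63% of all genes, and all 15 were lowest in library 1; 12 were highest in library 4 and 3 in library 3. With the ribosomal RNA gene kept in the totals 14 of the 15 were lowest in library 1. Of the 23 with at least 10 CPM in every library 13 were called, against 4.4% of all such genes. Hoxa9, at chr6:52223100-52231089 on the minus strand, was the most variable, with 68.6, 88.3, 128 and 211 CPM and a CV 5.01 times that of genes of its level.

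Summed by position, groups 1 to 4 had 301, 475, 493 and 528 CPM in libraries 1 to 4, groups 5 to 8 had 461, 675, 837 and 835, and groups 9 to 10 had 333, 449, 584 and 790. Groups 11 to 13, the tail end of the clusters, had 35.8, 50.3, 71.5 and 111 CPM. Library 4 was thus 3.10-fold above library 1 for groups 11 to 13 and 1.75-fold for groups 1 to 4. Without library 4 the range was 1.99-fold for groups 11 to 13 and 1.64-fold for groups 1 to 4, so most of that difference rested on library 4. Without library 1 the range was 2.21-fold for groups 11 to 13 and 1.11-fold for groups 1 to 4. At the far end Hoxd13 had 1.82, 6.81, 11 and 20.4 CPM (9, 34, 62 and 88 counts), and Hoxc10 had 13.8, 27.4, 41.4 and 68.9. Not every member moved: Hoxb3 stayed between 19.2 and 22.7 CPM, and Hoxb7 was lowest in library 4, at 38.2. In the M21 annotation 8 of the 33 present Hox genes share exon bases with another gene on the same strand, Hoxa9, Hoxc10, Hoxd4 and Hoxd11 among the variable ones, and their counts are less certain.

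**Figure D5:**
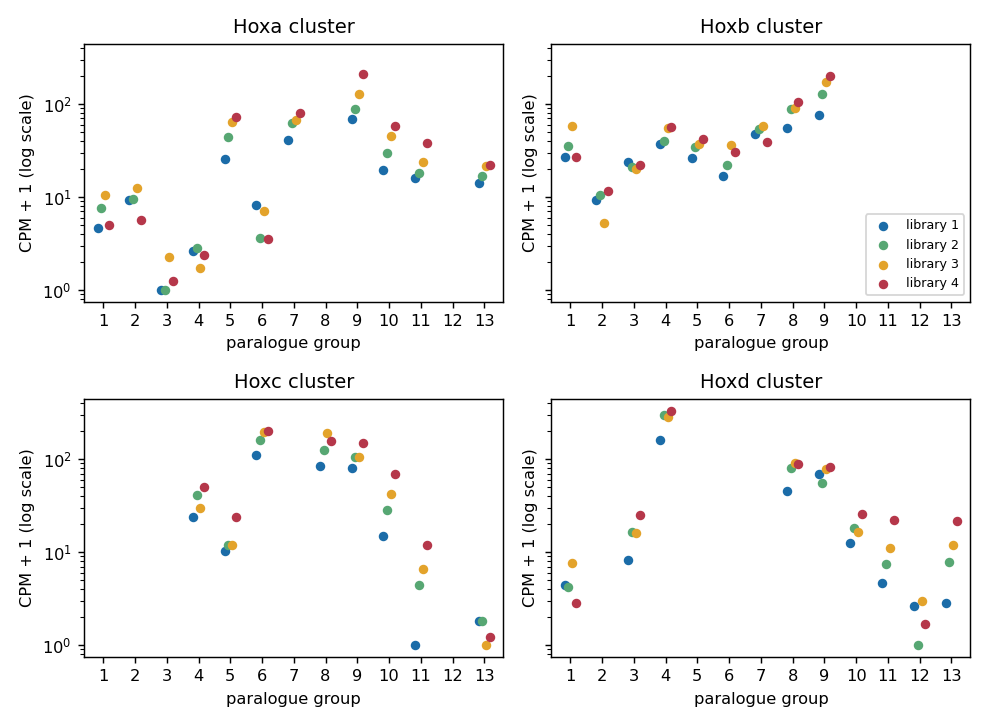
CPM + 1 (log scale) of the Hox genes of each of the 4 clusters by paralogue group, 1 point per library. Of the 27 tested genes 24 are lowest in library 1 (blue) and 21 highest in library 4 (red), as Hoxc10 is, from 13.8 to 68.9 CPM.

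Of the 280 tested transcription and chromatin factors, Hox genes included, 32 were called (11.4%, against 4.63% of all genes). Of these 15 were Hox genes, and of the other 253 factors 17 were called (6.72%). Among the 17, 7 were highest in library 4 and 6, namely Mef2c, Myocd, Nkx2-5, Nfia, Tbx5 and Tbx20, in library 1. Prrx1, a homeodomain factor of limb and body wall mesenchyme, had 34.0, 48.5, 68.3 and 94.6 CPM. Meis2, a Hox cofactor, had 190, 244, 305 and 341. Cdx2, a caudal factor known as a regulator of Hox genes, had 115, 154, 122 and 199, and Tbx4, a hindlimb and allantois factor, 15.0, 22.6, 15.8 and 37.9. Each of these 4 was lowest in library 1 and highest in library 4.

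Of the signalling list 71 of 77 genes were present in all libraries and 11 of 58 tested genes were called (19%, against 4.63% of all tested genes). Among ligands, Wnt5a, a noncanonical Wnt of caudal mesoderm and limb, had 251, 343, 394 and 470 CPM, lowest in library 1. Bmp2 had 73.9, 52.7, 39.1 and 27.3 CPM and Wnt2 37.3, 26.4, 14.9 and 12.7, both highest in library 1, whereas Bmp4 had 367, 461, 394 and 299. Igf1 had 79.8, 61.1, 36.6 and 28.7. Among receptors, Kdr had 367, 300, 232 and 221 CPM, while Igf1r, Igf2r and Fzd2 were not called and lay between 515 and 578, 744 and 776, and 330 and 372. Of binding proteins and effectors, Igfbp5, which binds insulin-like growth factors, had 394, 487, 533 and 678, Crabp2, a retinoic acid carrier, 69.0, 77.3, 100 and 124, and Lef1, a nuclear effector of Wnt, 101, 112, 157 and 159. These 3 were lowest in library 1.

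All 30 listed cell cycle genes were present and 1, Aurkb, was called, a share of 3.33% against 4.63% of all tested genes. Aurkb was highest in library 2 and lowest in library 4, a 3.46-fold range. The CV of the 30 genes had a median of 1.22 times that of genes of their level. Of the 30, 18 were lowest in library 1, as were 27.4% of all tested genes. Highest in library 3 were 17 of the 30 and in library 4 10, against 25.7% and 24.9% of all tested genes. The sum of the list lay between 6053 CPM in library 1 and 6962 in library 4. Of the genes highest in library 4, Top2a, a replication topoisomerase, had 979, 1055, 1022 and 1214 CPM. Mki67, also highest there, had 275, 285, 295 and 347. The glycolysis and hypoxia list had 5 of 24 genes called (20.8%), among them the glucose transporter Slc2a1 with 418, 358, 260 and 205 CPM. Of the 23 with at least 10 CPM in every library 4 were called, against 4.4% of all such genes. Of the 5, 3 were highest in library 1, Gapdh in library 2 and Pgk1 in library 3. Gapdh and Pgk1 are among the genes described above as uncertain because of near-identical copies. Stress and immediate early genes had 2 of 16 called (12.5%), and their sum lay between 1731 and 1869 CPM. Of 77 tested ribosomal protein genes 12 were called (15.6%), all lowest in library 4, the library with the highest shares of the ribosomal RNA gene and of mitochondrial ribosomal RNA; the part of these shares in the low levels was not tested. Of 9 tested mitochondrial transfer RNA genes 3 were called (33.3%, against 4.63% of all tested genes). These were mt-Te, mt-Tc and mt-Tp, all highest in library 1, with mt-Te at 535, 235, 308 and 202 CPM. PolyA RNA was measured, and whether these reads came from mature transfer RNAs was not tested. The most even genes at 100 CPM or more were Eif3d, a translation initiation factor subunit, between 229 and 234 CPM, Mex3a, an RNA-binding protein, between 438 and 447, and Uhrf2, Kdelr1 and Abcf1.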

How the data were processed

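RNA of 4 parental cultures was analysed from the counts table the authors deposited, whole-number reads per gene and library that had not been normalized or pooled. Per the submitters' processing notes, STAR, featureCounts and build mm10 were used, and forward-strand counting is given in the table name. The annotation, versions, filters and any removal of duplicate reads are not given in the sources used here. The 4 columns of the mutant line were not used. Of 55487 identifiers 55227 were given a symbol, from GENCODE M21 on GRCm38 or, failing that, from a list of gene names. Coordinates came from M21 only. Of the 55487, 54435 were identical to an M21 identifier with its version.

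CPM was computed over each total without CT010467.1, an rRNA gene. A gene counted as present with more than 3 counts. Floors and shares cover counting error only, since no molecular identifier is mentioned. Variation was the CV over 4 libraries divided by the median CV of the gene and the 500 others nearest in mean, for genes with a mean of at least 10 CPM, and was called at 2. The script was tested on simulated data. How many calls noise over 4 libraries alone would give is not stated here. Alternatives used edgeR 4.0.16 and DESeq2 1.42.0 in R 4.3.3, the rest Python 3.11.15 with pandas 2.3.3. The cultures, gene lists and rules were chosen with earlier results of these data known.

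Genes to name were drawn, not exhaustively, from the 25 most abundant genes, the 30 most abundant factors, members of the GATA, T-box, NK, HAND, MEF2, LIM and HOX families, up to 6 leading and all variable members of each list with its first 3, the 25 most variable genes, the 5 most even at 100 CPM or more, and Tbx1, Xist and Y-linked genes. An item that the rule selects is not reported here. Outside this rule, H19, Igf2, Ldha, mitochondrial mRNAs at 0, Myh11, Tagln, Alb, other list members at or near 0 counts and genes beside the threshold were named after their values were seen. Promoter windows came from RefSeq, 1 per gene.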

Additional observations from a re-analysis of the deposited data

Results flagged for a closer look

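In 14 of 199 values looked at (library shares, list sums and the genes named above), 1 library stood apart from the other 3 by more than a set share of the range, which chance does in about 1 in 20 groups. The 14 are not far above that share, and several of the values overlap. Library 4 stood apart in the share of mitochondrial rRNA, 6.46% of counts against 4.61% to 4.79%. Its genes mt-Rnr1, at 17403 CPM, and mt-Rnr2, at 47242 CPM, were likewise highest there. The shares of the top 10 genes (11.4%), the top 25 (15.6%) and the top 1000 (56.6%), which contain these genes, were also set apart in library 4. In library 3 Hand1 was low at 632 CPM against 698 to 702, Dnmt3b was low at 108 CPM against 112 in the others, Msx1 was high at 312 CPM, and the erythroid list summed to 149 CPM against 206 to 214. In library 1 Cald1 was high at 625 CPM, Nfia at 42.1 CPM and Ckm at 0.810 CPM, which is 4 counts, and Xist was low at 2.23 CPM, which is 11 counts.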

How the results depend on the processing

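No paired analysis was possible because only 1 group was used. In all, 178 values were computed under other settings. The count of 428 variable genes was 435 after TMM scaling and 437 with DESeq2 size factors. It was 676 to 781 when 1 library was left out, since a CV over fewer libraries scatters more; of the 428 genes, 275 were called again without library 1, 400 without library 2, 351 without library 3 and 315 without library 4. It fell to 238 with a minimum mean of 50 CPM, to 72 with a CV ratio of at least 3 and to 204 by the ratio of edgeR's tagwise to trended dispersion, and rose to 1528 with a ratio of at least 1.5. Of the 204 genes by dispersion, 197 were among the 428. Variable cardiomyocyte genes numbered 14 instead of 23 at 50 CPM, of 16 tested, against 5.87% of all genes tested there. They numbered 20 to 25 with 1 library left out. Without library 1, 20 of 24 tested genes were called, against 7.34% of all genes. Variable Hox genes numbered 9 instead of 15 at 50 CPM, of 11 tested, 5 at a ratio of at least 3, and 11 to 19 with 1 library left out. The 25 most abundant genes held 14.4% of counts, 12.8% with the rRNA gene in the total, 8.78% without mitochondrial genes and 14% to 14.6% with 1 library left out. The mean cardiomyocyte sum of 3843 CPM was 2809 to 4502 with 1 library left out. Transcription factors present numbered 391, and 396 to 401 with 1 library left out. Without library 1 the range of Actc1 fell from 8.30-fold to 4.16-fold, that of Myl7 from 8.05-fold to 4.05-fold and that of Ttn from 4.84-fold to 2.69-fold. Without library 4 that of Hoxa9 fell from 3.08-fold to 1.87-fold. Levels at or under 3 counts could not be read, and the 4 cultures of 1 line limit the precision of every CV.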
